A study of Homo sapiens with 4 samples.

Results

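The HOX cluster genes were taken from the deposited expression table by name, as every row called HOXA, HOXB, HOXC or HOXD followed by a number. This gave 39 genes of 60666 rows, with 11 in HOXA, 10 in HOXB, 9 in HOXC and 9 in HOXD. The values came from RNA sequencing of total RNA from HGC27, a line established from human gastric cancer. The noglu group was grown in glucose-free DMEM with serum and antibiotics (n = 2), and the lactate group received 25 mM lactate in that medium for 24 h (n = 2). The study asked how lactate changes the cells when glucose is absent. The samples of a group are numbered 1 and 2 with no word on whether each was its own culture, and the spread behind every p-value may therefore be technical.

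Values are TPM, the share of transcripts that a gene takes in a library after correction for its length, scaled to a fixed total. TPM can be compared between genes, but it keeps no sequencing depth, and the depth of these libraries is unknown. The label of a gastric line was checked against marker genes. Of 11 markers of gastric epithelium, 8 were listed at 0 in all 4 libraries, including TFF1, MUC5AC and GKN1, and MUC6 alone reached a mean of 1 TPM (4.19 and 1.35 TPM in noglu, 2.34 and 0.91 TPM with lactate). The mesenchymal marker VIM stood between 2747 and 2984 TPM, and the epithelial marker EPCAM did not exceed 0.80 TPM. The summed level of 7 general epithelial markers was 5.70 and 4.51 TPM in noglu and 11.58 and 10.56 TPM with lactate, with KRT8 called higher. The 9 mesenchymal markers summed to between 3916 and 4261 TPM. COL3A1 and SNAI2 were called higher, DCN was at 213.11 and 209.77 TPM in noglu and 162.08 and 186.01 TPM with lactate (-0.28 ± 0.10, limma, adjusted p = 0.145), and CDH2 did not exceed 0.08 TPM. The 7 markers of blood and endothelium summed to between 0.73 and 1.56 TPM, and 6 intestinal markers to 1.97 and 2.11 TPM in noglu and 3.08 and 4.82 TPM with lactate. The part of these differences in epithelial and mesenchymal markers in the HOX values was not tested.

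HOX genes encode transcription factors that bind DNA through a homeodomain and give cells along the body axis their positional identity. They sit in 4 clusters in which gene order follows the order of expression from head to tail, and genes with the same number in different clusters are paralogs. Genes near the 3′ end (low numbers) are used anteriorly and answer early to retinoic acid, and genes near the 5′ end (high numbers) are used in the hindgut, the limbs and the urogenital tract. Trithorax and Polycomb complexes hold the clusters open or closed, and many adult cells and tumors keep a HOX pattern that records where they came from.

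On the GRCh38 assembly, with gene bounds from GENCODE release 29, the HOXA genes lie on chromosome 7 with their 5′ end at 27200106, and the HOXB genes on chromosome 17 between 48528526 and 48729178. The HOXC genes lie on chromosome 12 between 53938765 and 54056030, and the HOXD genes on chromosome 2 between 176092891 and 176190907. The homeobox, the 180 coding bases that specify the 60 residues of the homeodomain, is shown for the gene with the highest mean TPM in each cluster, because these 4 genes carried the pattern described next. Bases in capitals encode residues 42 to 58 of the homeodomain, the stretch around the recognition helix that contacts DNA. The sequences are exonic and were read 5′ to 3′ on the coding strand from the GENCODE transcripts.
HOXA13: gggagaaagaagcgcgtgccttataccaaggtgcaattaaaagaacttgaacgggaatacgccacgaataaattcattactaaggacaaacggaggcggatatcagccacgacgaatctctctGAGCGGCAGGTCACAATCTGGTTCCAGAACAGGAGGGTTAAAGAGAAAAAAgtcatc
HOXB9: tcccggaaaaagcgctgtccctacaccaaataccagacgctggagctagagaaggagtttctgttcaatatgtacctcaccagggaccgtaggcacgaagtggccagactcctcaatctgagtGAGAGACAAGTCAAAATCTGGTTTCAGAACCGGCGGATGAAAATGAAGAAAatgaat
HOXC10: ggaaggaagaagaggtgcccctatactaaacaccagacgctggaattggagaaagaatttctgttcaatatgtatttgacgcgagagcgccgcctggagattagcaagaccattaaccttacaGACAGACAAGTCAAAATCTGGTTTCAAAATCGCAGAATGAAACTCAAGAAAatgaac
HOXD13: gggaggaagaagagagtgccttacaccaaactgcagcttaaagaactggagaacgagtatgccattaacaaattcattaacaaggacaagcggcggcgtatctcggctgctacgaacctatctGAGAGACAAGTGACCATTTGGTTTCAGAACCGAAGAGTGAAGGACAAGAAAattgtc

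HOXA13 (NCBI gene 3209, minus strand, 27193503 to 27200106) and HOXD13 (NCBI gene 3239, plus strand, 176092891 to 176095938) are paralogs of group 13, and their homeoboxes were identical at 73.3% of bases and 86.7% of encoded residues. HOXB9 (NCBI gene 3219, minus strand, 48621159 to 48626356) and HOXC10 (NCBI gene 3226, plus strand, 53985065 to 53990279) belong to neighbouring groups. Over all 42 pairs of paralogs from the same group, homeoboxes shared between 69.4% and 90.6% of their bases, with a median of 81.7%. The median over 699 pairs from different groups was 60.6%. HOXB9 shared 83.3% of homeobox bases with HOXA9, 82.2% with HOXC9 and 84.4% with HOXD9. No pair of paralogs from 1 group was therefore identical in its homeobox bases.

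All 4 clusters were expressed in HGC27, and the genes near the 5′ end were the highest. Paralog groups 9 to 13 made up between 70.5% and 72.8% of all HOX TPM in each library, groups 5 to 8 between 15.7% and 17.8%, and groups 1 to 4 between 11.5% and 13.4%. The median level of a gene was 8.17 TPM in groups 9 to 13 (16 genes), 2.06 TPM in groups 5 to 8 (11 genes) and 1.77 TPM in groups 1 to 4 (12 genes). By cluster, HOXA held 31.6% of the HOX TPM, HOXC 27.6%, HOXD 25.0% and HOXB 15.7%. Between 36 and 37 of the 39 genes were listed above 0 in each library, and 26 and 27 of them reached 1 TPM in noglu and 33 in each lactate library. The level was modest against other genes, since only 5 of the 31 HOX genes whose mean reached 1 TPM lay above the median of all such rows (12.5 TPM).

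**Figure D1:**
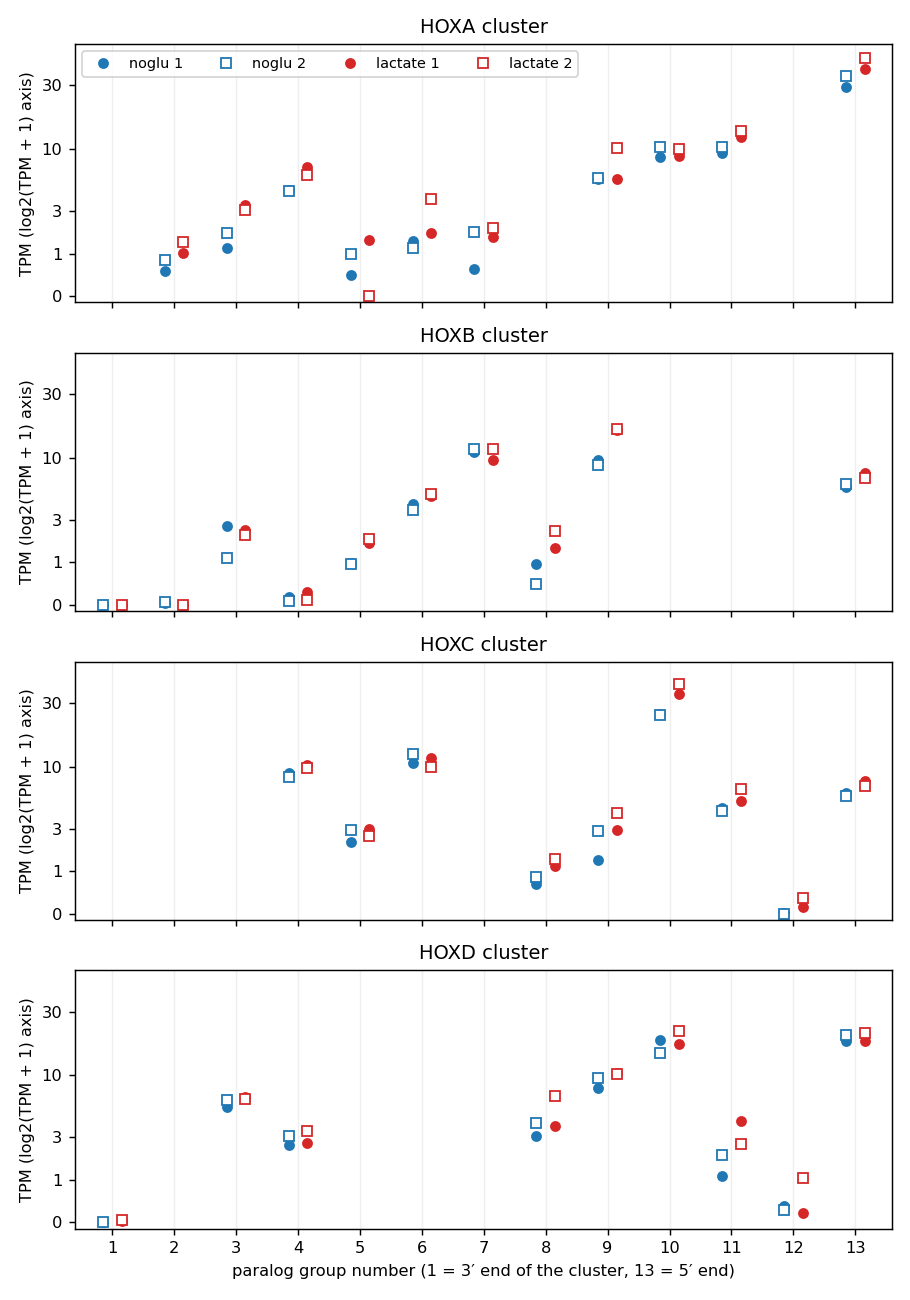
TPM of 38 HOX genes in the 4 libraries, in 1 panel per cluster, against the paralog number on the horizontal axis. The vertical axis is TPM on a log2(TPM + 1) scale, circles are replicate 1, squares replicate 2, blue noglu and red lactate. HOXA13, HOXC10, HOXD10 and HOXD13 form the top of the plot, and HOXB1, HOXB2 and HOXD1 lie at or near 0.

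By summed TPM, the posterior genes were led by group 13. Such sums depend on the number of members, which is 4 in group 13 and 3 in group 10. HOXA13, a regulator of distal limb and hindgut patterning, was the highest HOX gene, at 29.46 and 35.42 TPM in noglu and 39.45 and 47.43 TPM with lactate. HOXD13, known for digit formation, was at 18.34 and 20.34 TPM in noglu and 18.11 and 21.03 TPM with lactate. The other members of the group were lower. HOXB13, a factor of prostate and hindgut, was at 5.82 and 6.15 TPM against 7.65 and 6.86 TPM, and HOXC13, known for hair and nail keratin genes, at 6.13 and 5.85 TPM against 7.64 and 6.95 TPM. The summed TPM of group 13 was 59.75 and 67.76 in noglu and 72.85 and 82.27 with lactate, the highest of the 13 groups.

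Group 10 came next, with HOXC10, which takes part in lumbar and hindlimb identity in the mouse, at 24.94 and 24.54 TPM in noglu and 34.99 and 41.37 TPM with lactate. HOXD10, a paralog with the same lumbar role in the mouse, was at 18.49 and 14.91 TPM against 17.21 and 21.79 TPM, and HOXA10, a factor of uterine development, at 8.59 and 10.34 TPM against 8.76 and 10.06 TPM. The lactate libraries thus lay above both noglu libraries for HOXC10, while the groups overlapped for HOXA10 and HOXD10. In group 11, HOXA11, which patterns the forearm and the uterus in the mouse, was at 9.29 and 10.40 TPM against 12.43 and 13.75 TPM. HOXC11 was at 4.58 and 4.29 TPM against 5.25 and 6.69 TPM. HOXD11, which acts with HOXA11 in the mouse forearm, was at 1.12 and 1.98 TPM against 4.19 and 2.60 TPM. All 3 members of group 11 were higher in both lactate libraries than in either noglu library. Lactate was higher in this way in 37.0% of all rows whose mean reached 1 TPM, a share to set beside such statements for every group.

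Group 12 was nearly silent between its expressed neighbours. HOXC12 did not exceed 0.29 TPM in any library, and HOXD12 was at 0.30 and 0.22 TPM in noglu and 0.16 and 1.08 TPM with lactate. HOXD12 lies between HOXD13 and HOXD11, so an expressed gene stood on each side of it. Group 9 held HOXB9, which shapes the thoracic skeleton and the mammary gland in the mouse, at 9.59 and 8.85 TPM in noglu and 16.33 and 16.62 TPM with lactate. HOXA9, known as a leukemia gene, was at 5.74 and 5.91 TPM against 5.80 and 10.17 TPM. HOXC9 was at 1.38 and 2.84 TPM against 2.88 and 4.12 TPM, and HOXD9 at 7.89 and 9.58 TPM against 10.35 and 10.25 TPM. Both lactate libraries stood above both noglu libraries for HOXB9, HOXC9 and HOXD9, and the groups overlapped for HOXA9.

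**Figure D2:**
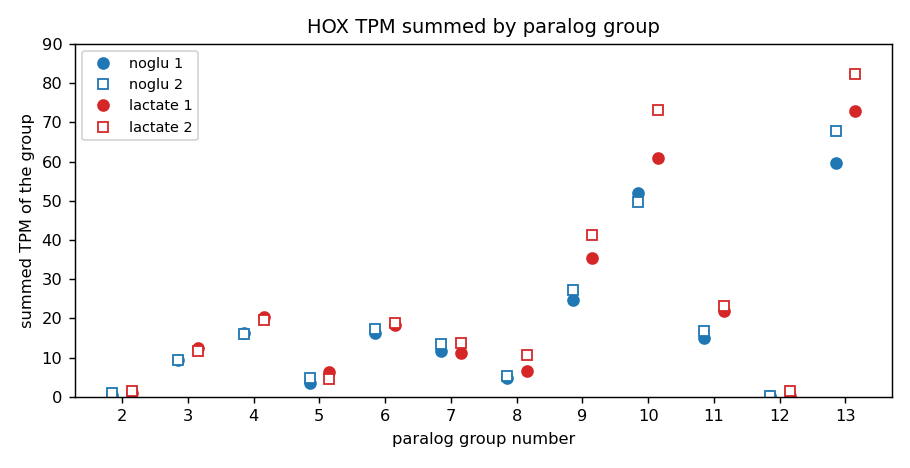
TPM summed over the members of paralog groups 2 to 13, 1 point per library, on a linear axis. Group 13 is highest at 59.75 to 82.27 TPM, followed by group 10 at 49.79 to 73.22 TPM, and group 12 stays at or under 1.37 TPM.

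The central genes, groups 5 to 8, were lower and uneven. HOXB7 was at 11.18 and 11.68 TPM in noglu and 9.60 and 11.74 TPM with lactate, and HOXC6 at 10.59 and 12.40 TPM against 11.64 and 9.89 TPM. Both overlapped between conditions. HOXB6 was at 4.19 and 3.70 TPM against 4.89 and 5.08 TPM, and HOXD8 at 3.11 and 4.03 TPM against 3.83 and 6.88 TPM. HOXC5 was at 2.21 and 2.90 TPM against 2.97 and 2.53 TPM, and HOXA6 at 1.44 and 1.18 TPM against 1.79 and 3.84 TPM. HOXB6 and HOXA6 were higher in both lactate libraries than in either noglu library, while HOXD8 and HOXC5 overlapped. Near the limit of 1 TPM stood HOXA7 (0.56 and 1.84 TPM against 1.64 and 2.02 TPM) and HOXB5 (0.98 and 0.95 TPM against 1.74 and 1.93 TPM). HOXB8, known in the mouse for holding blood progenitors undifferentiated, was at 0.95 and 0.41 TPM against 1.51 and 2.31 TPM, and HOXC8 at 0.61 and 0.81 TPM against 1.19 and 1.43 TPM. Of these 4 low genes, HOXA7 alone overlapped between conditions. HOXB5, HOXB8 and HOXC8 had noglu means of 0.965, 0.68 and 0.71 TPM and reached the limit for testing only through their lactate values. HOXA5, which the mouse lung needs, was at 0.40 and 0.99 TPM against 1.51 and 0 TPM and fell under the limit for testing.

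Of the anterior genes, groups 1 to 4, HOXC4 was highest at 8.91 and 8.24 TPM in noglu and 10.25 and 9.81 TPM with lactate. HOXD3 was at 5.59 and 6.33 TPM against 6.73 and 6.47 TPM, and HOXA4 at 4.62 and 4.55 TPM against 7.25 and 6.21 TPM. HOXD4 was at 2.51 and 3.08 TPM against 2.64 and 3.43 TPM. HOXB3 was at 2.64 and 1.16 TPM against 2.41 and 2.14 TPM. The groups overlapped for HOXD4 and HOXB3 and stood apart for HOXC4, HOXD3 and HOXA4. HOXA3, which the mouse needs for thymus and parathyroid, was at 1.18 and 1.79 TPM against 3.43 and 3.06 TPM. HOXA2, a gene of the second pharyngeal arch, was at 0.51 and 0.80 TPM against 1.03 and 1.41 TPM. HOXA2 and HOXA3 were each higher in both lactate libraries than in either noglu library. At the 3′ end of HOXB, the genes other than HOXB3 were at or near 0 as far as HOXB4. HOXB1 was listed at 0 in all libraries, HOXB2 did not exceed 0.04 TPM and HOXB4 did not exceed 0.24 TPM. HOXD1, the first gene of its cluster, did not exceed 0.04 TPM.

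Several of these values cannot be assigned to 1 gene with certainty, because HOX transcripts overlap. In the annotation, 18 of the 39 genes share exonic bases with another gene on the same strand, 19 share them with an antisense gene, and 14 share none. HOXC5 shares 43.4% of its exonic bases with HOXC4, HOXC6 and a further transcript, and HOXD4 and HOXD3 share 80.5% and 62.2% with a transcript that runs through both. HOXA7 lies over the antisense RNA HOXA-AS3 for 62.5% of its exonic bases. Whether counting used strand is not given in the sources used here, and without strand, reads from a gene and its antisense partner cannot be told apart. HOXB9 and HOXD13 share no exonic base with another gene, while HOXC10 shares 7.1% on its strand and HOXA13 shares 1.7% with antisense HOTTIP.

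Lactate was then compared with noglu for each gene. With limma on log2(TPM + 1), fitted over the 15051 rows whose mean reached 1 TPM, HOXB9 was the only HOX gene that passed an adjusted p of 0.05. Its mean rose from 9.22 ± 0.523 to 16.5 ± 0.205 TPM (SD, n = 2), and the log2 fold change was 0.77 ± 0.12 (SE, limma, Benjamini-Hochberg adjusted p = 0.0363). Of the 31 HOX genes tested, 1 rose, 0 fell and 30 did not pass, and the remaining 8 had a mean under 1 TPM. Over all tested rows, 992 were called (6.59%), with 706 higher (4.69%) and 286 lower (1.90%) in lactate, and a share of 1 in 31 is no larger than this background. At an unadjusted p under 0.05, 9 of the 31 HOX genes passed, all higher with lactate. The 9 include HOXB8, which reached the limit of 1 TPM for testing only through its lactate values. Over all tested rows 28.2% passed, 19.3% higher and 8.95% lower. The HOX share lay below that of all rows in some settings and above it in others. With median-ratio scaling 4 of 30 HOX genes passed, against 28.7% of all rows, and with a replicate block 8 of 31, against 33.0%. With 1 variance prior for all rows 10 of 31 passed, against 27.1%, and without the filter on low values 9 of 38, against 16.8%.

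The HOXB9 call was lost on leaving out any library, with adjusted p from 0.116 to 0.279 and log2 fold changes between 0.72 and 0.83. It also ended without the filter on low values (adjusted p = 0.118) and with 1 variance prior for all rows (adjusted p = 0.0628).

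Although few genes passed, most HOX values were higher with lactate. Fold changes of 28 of the 31 tested genes were above 0 and 3 were below 0, while 59.2% of all tested rows were above 0. The HOX median was 0.35, against 0.08 over all tested rows. In 20 of the 31 genes both lactate libraries lay above both noglu libraries, and in 0 genes both lay below. The same lay above in 37.0% and below in 21.3% of all tested rows. Genes such as HOXB5, HOXB8 and HOXC8 reached the limit of 1 TPM only through their lactate values. The filter favored this direction for them. Of the 17 genes at 5 TPM or more, 14 had fold changes above 0, with a median of 0.24. In 11 of these 17, both lactate libraries lay above both noglu libraries. The HOX genes share their libraries and are not independent of each other. With median-ratio scaling of the libraries, the HOX median was 0.26 and that of all rows was -0.01. Calls over all rows were then 48.6% higher, against 71.2% with TPM as deposited.

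**Figure D3:**
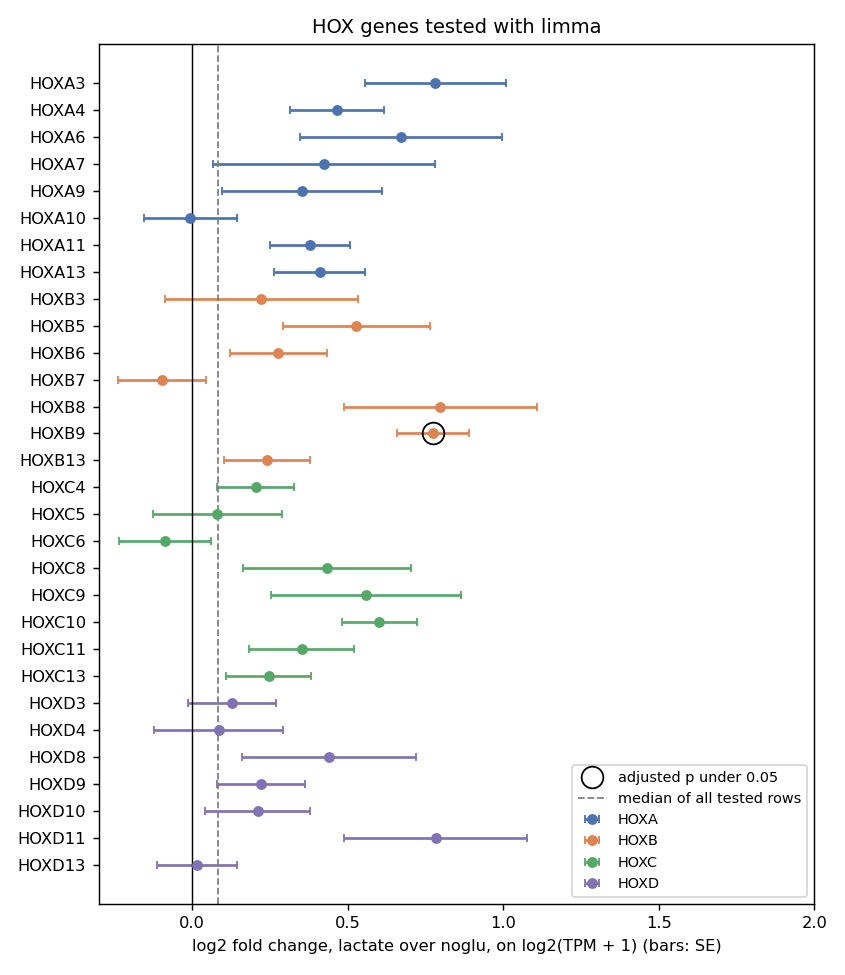
Log2 fold change of lactate over noglu for 30 of the 31 tested HOX genes on the log2(TPM + 1) scale, with bars of 1 SE and colors for the 4 clusters. The dashed line is the median of all tested rows (0.08), and the black ring marks HOXB9, the only gene past an adjusted p of 0.05.

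Of the genes that did not pass, HOXC10 came closest, with a mean of 24.7 ± 0.283 TPM in noglu and 38.2 ± 4.51 TPM with lactate, a log2 fold change of 0.60 ± 0.12 (limma, adjusted p = 0.0518). It passed with a pseudocount of 0.1 (adjusted p = 0.0467) and among rows whose mean reached 5 TPM (adjusted p = 0.0317). HOXA3 had a fold change of 0.78 ± 0.23 (limma, adjusted p = 0.10), HOXB8 one of 0.80 ± 0.31 (limma, adjusted p = 0.172) and HOXD11 one of 0.78 ± 0.29 (limma, adjusted p = 0.162). HOXA3, HOXB8 and HOXD11 were low genes. The 14 tested genes with a mean under 5 TPM had a median fold change of 0.48 and a median SE of 0.27, against 0.24 and 0.14 for the 17 genes at 5 TPM or more. Both lactate libraries lay above both noglu libraries in 9 of the 14 and in 11 of the 17, against 37.0% of all tested rows. That 37.0% covers rows of every level. The 14 low genes include HOXB5, HOXB8 and HOXC8, which passed the filter only through their lactate values, so the filter favored higher values with lactate there.

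Among the highest genes, HOXA13 had a log2 fold change of 0.41 ± 0.15 (limma, adjusted p = 0.148), and its paralog HOXD13 one of 0.01 ± 0.13 (limma, adjusted p = 0.957), with overlapping groups. HOXD13 changed sign with median-ratio scaling, to -0.09. The 3 genes with fold changes below 0 were HOXB7 (-0.10), HOXC6 (-0.09) and HOXA10 (-0.01), and all 3 had overlapping groups. No difference between 2 HOX genes was itself tested.

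Summed TPM was higher with lactate in all 4 clusters. The 39 genes together summed to 214.56 and 229.31 TPM in noglu and 269.80 and 303.75 TPM with lactate, a ratio of means of 1.29. HOXA went from 68.1 ± 8.22 to 92.8 ± 10.7 TPM (SD, n = 2), HOXB from 34.3 ± 1.77 to 45.6 ± 1.69 TPM and HOXC from 60.6 ± 1.77 to 80.0 ± 4.35 TPM. HOXD went from 58.9 ± 2.21 to 68.4 ± 7.30 TPM, the smallest ratio (1.16, against 1.36, 1.33 and 1.32 for HOXA, HOXB and HOXC). Both lactate libraries were above both noglu libraries in each cluster, and the spread within a condition was widest in HOXA. The log2 ratio of HOXD, 0.22, was 0.10 with median-ratio scaling and 0.10 without lactate replicate 2. With 2 libraries a group, an exact two-sided permutation test cannot go below 0.333, so no p is given for the sums. In bulk RNA, fewer cells of a kind and less RNA per cell cannot be told apart.

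The clusters also make long noncoding RNAs, many of them antisense to HOX genes, and 4 of these were called. Of 19 listed RNAs, 18 were found, 10 were tested, 3 rose and 1 fell (all tested rows, 4.69% and 1.90%), with a median fold change of 0.44 against 0.08 over all rows. HOXA-AS2, which lies antisense to HOXA3 and HOXA4, was at 2.35 and 1.62 TPM in noglu and 5.59 and 7.62 TPM with lactate (1.35 ± 0.23, limma, adjusted p = 0.0410). HOXA11-AS, antisense to HOXA11, was at 10.81 and 10.56 TPM against 16.42 and 19.06 TPM (0.68 ± 0.13, limma, adjusted p = 0.0470). HOTTIP, transcribed from the 5′ end of HOXA beside HOXA13, was at 24.14 and 23.67 TPM against 35.15 and 35.41 TPM (0.54 ± 0.10, limma, adjusted p = 0.0447). The 3 RNAs that rose all came from the HOXA cluster. Of the 10 tested RNAs, HOXA10-AS and HOTAIRM1 also lie in HOXA, and the HOXB RNAs were too low to be tested. Both lactate libraries lay above both noglu libraries in 5 of the 10 and below in 2, against 37.0% and 21.3% of all tested rows.

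HOXD-AS2, transcribed against the HOXD genes from the annotated 5′ end of HOXD3 through HOXD8 and HOXD9 (chromosome 2, 176121611 to 176137098), was the RNA that fell, from 8.06 and 6.79 TPM in noglu to 3.21 and 2.04 TPM with lactate (-1.23 ± 0.22, limma, adjusted p = 0.0434). HOXD3 itself had a fold change of 0.13 ± 0.14 (limma, adjusted p = 0.590). HOTAIRM1, which lies at the 3′ end of HOXA and is known from myeloid cells, was at 6.57 and 8.90 TPM against 13.35 and 18.58 TPM (0.95 ± 0.22, limma, adjusted p = 0.0629). HOTAIR, the RNA of the HOXC cluster studied for its link to Polycomb, was at 10.00 and 12.38 TPM against 11.80 and 13.49 TPM and did not pass. The calls of HOTTIP and HOXA11-AS ended with median-ratio scaling (adjusted p = 0.0676 and 0.0573), and all 4 were lost on leaving out any library (adjusted p from 0.116 to 0.289). The 6 microRNA genes of the clusters that were looked up, such as MIR10A and MIR196B, were listed at 0. Whether these libraries capture such short RNAs was not tested.

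**Figure D4:**
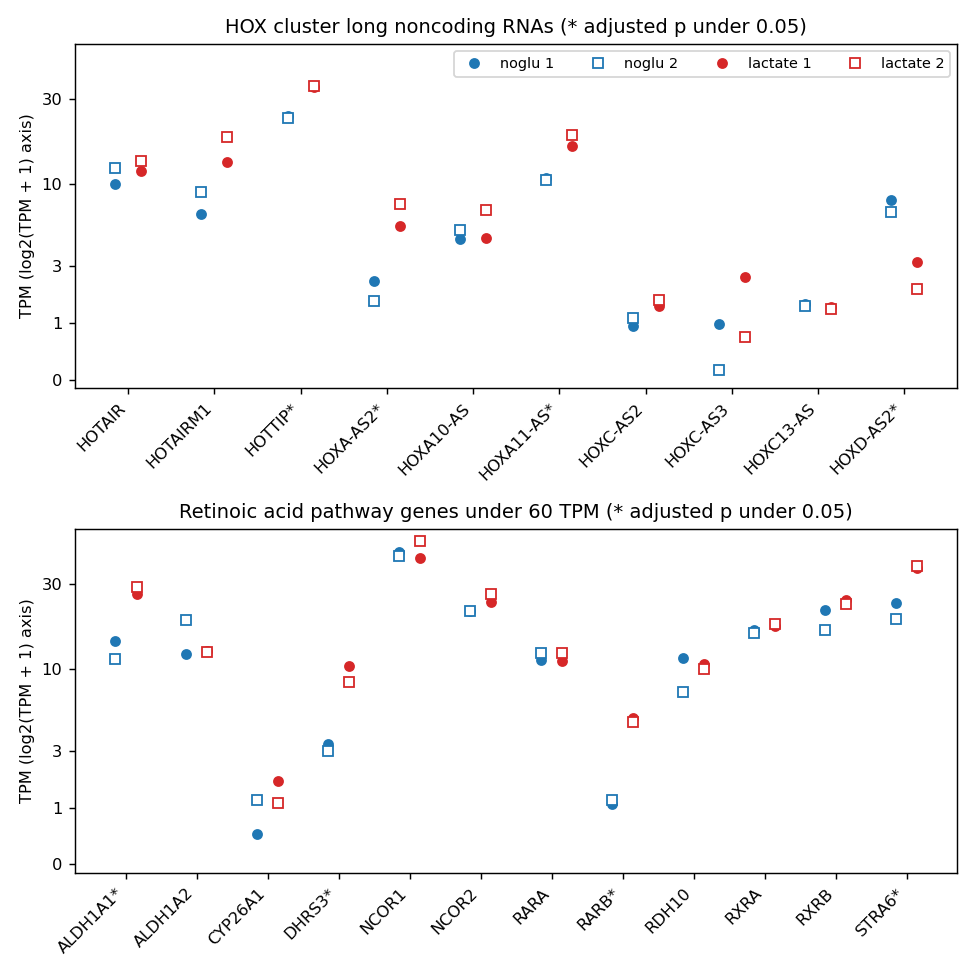
TPM in the 4 libraries of the 10 tested HOX long noncoding RNAs (top) and of the retinoic acid pathway genes with a mean under 60 TPM (bottom), on a log2(TPM + 1) axis, with circles for replicate 1, squares for replicate 2, blue for noglu and red for lactate. Asterisks mark adjusted p under 0.05, which HOTTIP, HOXA-AS2, HOXA11-AS and HOXD-AS2 reach at the top and ALDH1A1, DHRS3, RARB and STRA6 at the bottom.

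Along HOXA, read from the 3′ side, fold changes were 0.78 for HOXA3, 0.47 for HOXA4, 0.67 for HOXA6, 0.42 for HOXA7, 0.35 for HOXA9, -0.01 for HOXA10, 0.38 for HOXA11 and 0.41 for HOXA13. The HOXA6 value was 1.07 without lactate replicate 1 and 0.27 without lactate replicate 2. Mean levels over the 4 libraries went from 2.37 TPM for HOXA3 to 37.9 TPM for HOXA13, so position and level cannot be told apart here. In HOXB, HOXB8 and HOXB9 (0.80 and 0.77) stood beside HOXB7 (-0.10).

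The proteins that act with or on HOX genes were read from lists. HOX factors bind DNA with TALE homeodomain cofactors of the PBX and MEIS families. Of 9 such genes, all tested, 1 rose and 0 fell, while 2 passed an unadjusted p of 0.05 upward and 1 downward, against 19.3% and 8.95% of all tested rows. MEIS3 rose from 2.26 and 1.41 TPM to 7.12 and 6.04 TPM (1.43 ± 0.22, limma, adjusted p = 0.0375). PBX3 had the smallest adjusted p in the other direction, at 16.93 and 18.71 TPM against 14.62 and 11.32 TPM (-0.44 ± 0.16, limma, adjusted p = 0.146). PBX2, MEIS1 and MEIS2 were at 14.86 TPM or more in every library.

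Retinoic acid is the classical inducer of 3′ HOX genes, and its pathway was listed for that reason. Of 19 genes, 14 were tested, 4 rose and 0 fell (all tested rows, 4.69% and 1.90%), with a median fold change of 0.26. At an unadjusted p under 0.05, 6 were above and 0 below, against 19.3% and 8.95% of all tested rows. RARB, a receptor and itself a target of retinoic acid, was at 1.09 and 1.21 TPM in noglu and 4.99 and 4.72 TPM with lactate (1.45 ± 0.19, limma, adjusted p = 0.0327). DHRS3, a retinaldehyde reductase, was at 3.37 and 3.02 TPM against 10.40 and 8.40 TPM (1.304 ± 0.166, limma, adjusted p = 0.0321). ALDH1A1, which makes retinoic acid, was at 14.40 and 11.37 TPM against 26.34 and 29.07 TPM (1.05 ± 0.15, limma, adjusted p = 0.0340). STRA6, a retinol uptake receptor, was at 23.65 and 19.16 TPM against 36.55 and 37.73 TPM (0.77 ± 0.13, limma, adjusted p = 0.0418). The retinoic acid degrading enzyme CYP26A1 was at 0.45 and 1.20 TPM against 1.77 and 1.12 TPM and overlapped, and ALDH1A2 had the smallest adjusted p in the other direction (-0.26 ± 0.22, limma, adjusted p = 0.466). The STRA6 call ended with median-ratio scaling (adjusted p = 0.0610), and all 4 were lost on leaving out any library (adjusted p from 0.110 to 0.279).

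Polycomb complexes, which repress HOX clusters, had 27 genes tested, with 2 higher and 1 lower (all tested rows, 4.69% and 1.90%) and a median of 0.02. CBX7 was at 0.61 and 0.77 TPM in noglu and 3.02 and 2.95 TPM with lactate (1.24 ± 0.23, limma, adjusted p = 0.0456). Its noglu mean was 0.69 TPM, so CBX7 reached the limit of 1 TPM for testing only through its lactate values. PHC1 was at 9.70 and 8.94 TPM against 15.68 and 14.57 TPM (0.64 ± 0.12, limma, adjusted p = 0.0471). RBBP4, a histone-binding subunit shared with other chromatin complexes, fell from 103.02 and 106.43 TPM to 63.76 and 64.63 TPM (-0.70 ± 0.09, limma, adjusted p = 0.0318). The calls of CBX7 and PHC1 ended with median-ratio scaling (adjusted p = 0.0539 and 0.0710), and all 3 were lost on leaving out any library.

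The opposing KMT2 and DOT1L complexes had 18 genes tested and 0 called, with 1 in each direction at an unadjusted p under 0.05 (all tested rows, 19.3% higher and 8.95% lower). KDM6B, which removes the Polycomb mark, had the smallest adjusted p upward (0.62 ± 0.15, limma, adjusted p = 0.0723), and KMT2D downward (-0.33 ± 0.10, limma, adjusted p = 0.103). CTCF, cohesin and other boundary factors, which separate active from silent HOX genes, had 10 genes tested and 0 called. The fold change was below 0 in 9 of them, while 59.2% of all tested rows were above 0. At an unadjusted p under 0.05, 4 were below (all tested rows, 8.95%). STAG1, a cohesin subunit, had the smallest adjusted p, at 16.53 and 19.32 TPM against 10.91 and 12.40 TPM (-0.58 ± 0.14, limma, adjusted p = 0.0683). The STAG1 value passed with median-ratio scaling (adjusted p = 0.0486). RAD21 was the only one above 0 (0.19 ± 0.11, limma, adjusted p = 0.332), and it was at 0.0712 without lactate replicate 2 and 0.31 without lactate replicate 1.

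The ParaHox genes, relatives of the HOX genes that pattern the gut, and the EVX genes, which sit beside HOXA and HOXD, were mostly silent. Of 8 genes, 4 were listed at 0 in all libraries, 3 were tested and 0 were called, with 1 above at an unadjusted p under 0.05 (all tested rows, 19.3%). CDX2, an intestinal regulator of HOX genes, was at 1.76 and 1.96 TPM in noglu and 2.85 and 4.44 TPM with lactate (0.68 ± 0.24, limma, adjusted p = 0.145), and EVX2 had the only fold change below 0 (-0.08 ± 0.24, limma, adjusted p = 0.858).

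Genes that flank or interleave with the clusters were read to see whether the HOX values stood apart from their surroundings. Of 14 listed genes, 12 were tested, 3 rose and 0 fell (all tested rows, 4.69% and 1.90%), with a median of 0.46. At an unadjusted p under 0.05, 7 were above and 1 below, against 19.3% and 8.95% of all tested rows. HIBADH, a valine breakdown enzyme beyond the 5′ end of HOXA, was at 47.92 and 52.02 TPM in noglu and 87.97 and 105.13 TPM with lactate (0.93 ± 0.12, limma, adjusted p = 0.0328). PRAC1, which lies between HOXB13 and HOXB9, was at 89.13 and 71.61 TPM against 141.83 and 141.99 TPM (0.82 ± 0.13, limma, adjusted p = 0.0376). CALCOCO1, beside HOXC, was at 13.25 and 11.32 TPM against 23.07 and 20.50 TPM (0.78 ± 0.13, limma, adjusted p = 0.0418). CBX5, a heterochromatin protein beside HOXC, had the smallest adjusted p in the other direction (-0.32 ± 0.12, limma, adjusted p = 0.159). The calls of PRAC1 and CALCOCO1 ended with median-ratio scaling (adjusted p = 0.0557 and 0.0646), and all 3 were lost on leaving out any library.

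A wider window, chosen after the values were seen, took every tested gene within 1000 kb of a cluster but outside it. Of 83 such genes, 7 rose and 2 fell (all tested rows, 4.69% and 1.90%), with a median fold change of 0.11, close to the 0.08 of all rows. Around HOXA the median of 13 genes was 0.56, against 0.06 for 30 genes around HOXB, 0.11 for 33 genes around HOXC and -0.08 for 7 genes around HOXD. The median of the HOX genes themselves was 0.42 in HOXA, 0.28 in HOXB, 0.30 in HOXC and 0.21 in HOXD. The HOX median was below that of the surroundings in HOXA and above it in the other clusters, and these differences were not tested.

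**Figure D5:**
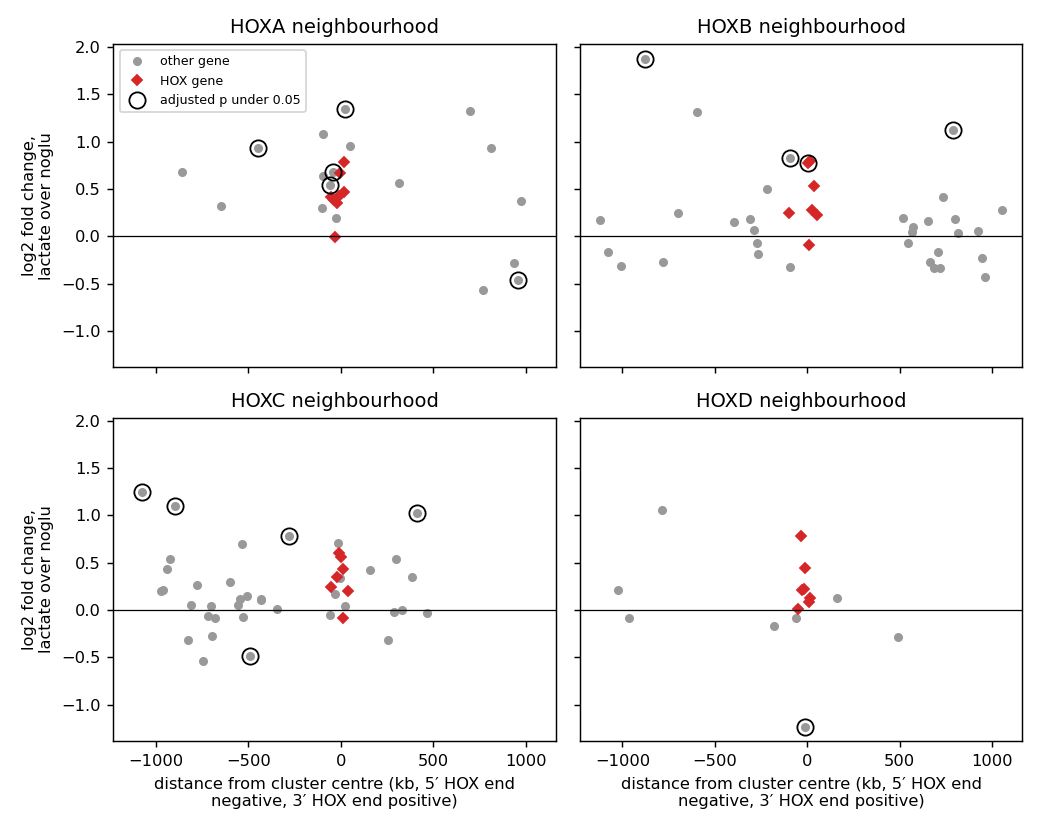
Log2 fold change of lactate over noglu for tested genes inside and within 1000 kb of each cluster, against the distance of the gene's middle from the cluster's centre in kb, with the 5′ HOX end negative. Red diamonds are HOX genes, grey points other genes and black rings adjusted p under 0.05, and the HOX genes lie mostly above 0 in all 4 panels.

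Promoter windows of 300 bases were at hand in the RefSeq table on GRCh38.p14 for 20 of the HOX genes, in 27 windows, of which 7 belong to HOXA3 and HOXC4 and HOXC5 share the same bases. They were rich in CpG, with a median observed over expected ratio of 0.85 against 0.58 over 35116 windows of all genes. The core of the site bound by TEAD factors, GGAATG on either strand, was present in 8 of the 27 windows (29.6%), against 14% of all windows. The shared bases of HOXC4 and HOXC5 held a match and were counted for each gene. The half-site of retinoic acid receptors, AGGTCA on either strand, was in 0 of the 27 windows, against 13.8% of all windows. A shared HOX and PBX motif, TGATTNAT on either strand, was in 2 windows (7.4%), against 2.8%. These are matches of letters and not measured sites, and the genes with a TEAD match included HOXD13 and HOXD10 but not HOXA13. HOXB9 and HOXC10 had no window and were not searched, and HOXB1 was the only HOXB gene with a window.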

How the data were processed

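RNA of 4 HGC27 libraries was analysed, 2 noglu and 2 lactate. The authors deposited TPM values, made with RSEM 1.3.3 on genome build hg38 per the submitters' processing notes. For the aligner, annotation and strand, nothing is given in the sources used here. Values entered limma 3.58.1 (R 4.3.3) as log2(TPM + 1) where a row's mean reached 1 TPM, which understates the change of low genes. Lactate was compared with noglu without further terms, with limma's trend option, and the two-sided p-values of all 15051 rows were adjusted together (Benjamini-Hochberg) and called under 0.05. A repeated symbol was represented by its highest row. The fit was tested on simulated data. Positions and homeoboxes came from GENCODE 29, with the frame holding the motif WF.NRR translated in Biopython 1.88 (Python 3.11.15). The HOX genes were described singly, except 1 that is not reported here and enters counts and sums only, and from each list the called genes or, where a direction had none, the gene with the smallest adjusted p. The HOX genes and lists were chosen with earlier results of these data known. Alternatives were a replicate block, each library left out, a pseudocount of 0.1, no filter, a filter of 5 TPM, median-ratio scaling, an adjusted p of 0.01, no trend and, added after seeing the data, protein-coding genes only.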

Additional observations from a re-analysis of the deposited data

How the results depend on the processing

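The direction of the HOX median held in every alternative run. The fold change of HOXB9 stayed between 0.67 and 0.83, and its adjusted p between 0.0118 and 0.279. The cause of the changes below was not tested. Over all rows, 1204 of 15051 were called with a pseudocount of 0.1, 1370 of 10741 with a filter of 5 TPM and 2077 of 11932 among protein-coding genes only. The number of HOX genes called, 1 of 31, became 2 of 31, 2 of 17 and 4 of 31 in these settings, each a smaller share than over all rows. It became 0 without a filter, with an adjusted p under 0.01 and with no trend in the prior. At an unadjusted p under 0.05 (limma), 9 of 38, 9 of 31 and 10 of 31 HOX genes passed in these settings, against 16.8%, 28.2% and 27.1% of all rows. No HOX call held when any library was left out. Calls over all rows, 992, became 2077 among protein-coding genes, 0 without a filter (5072 rows at an unadjusted p under 0.05), 1 under 0.01, 4 with no trend, and 0 to 10 when each library was left out.

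Among the lists, all called counts became 0 without a filter, under 0.01, with no trend and with each library left out (0 to 0), for long noncoding RNAs, TALE cofactors, flanking genes, Polycomb and retinoic acid genes alike. With a filter of 5 TPM, TALE cofactors went from 1 of 9 to 0 of 7, and MEIS3, with a mean of 4.21 TPM, was no longer tested. Flanking genes went from 3 to 6 of 12 and boundary factors from 0 to 1 of 10. Over all rows, 1370 of 10741 were called with that filter. With median-ratio scaling, long noncoding RNAs went from 4 to 2 of 10, flanking genes from 3 to 1 of 12, Polycomb genes from 3 to 1 of 27 and boundary factors from 0 to 1 of 10. Over all rows, 775 of 15038 were called with that scaling. Among protein-coding genes, flanking genes became 7 of 12, KMT2 genes 1 of 18, Polycomb genes 5 of 27 and boundary factors 1 of 10, against 2077 of 11932 over all rows.

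The median HOX fold change, 0.35, was 0.24 with a filter of 5 TPM and 0.26 with median-ratio scaling. The log2 ratio of summed TPM, 0.37 for all HOX genes, 0.45 for HOXA, 0.41 for HOXB, 0.40 for HOXC and 0.22 for HOXD, became 0.26, 0.33, 0.30, 0.29 and 0.10 with that scaling. HOXD13 turned to -0.0912 with that scaling. Leaving out each library gave ranges that crossed 0 for HOXA7 (-0.00835 to 0.86), HOXA9 (-0.00518 to 0.71), HOXA10 (-0.13 to 0.12), HOXB3 (-0.15 to 0.60), HOXB7 (-0.23 to 0.0358), HOXC5 (-0.0591 to 0.22), HOXC6 (-0.19 to 0.0204), HOXD4 (-0.0561 to 0.23), HOXD13 (-0.0883 to 0.12), EVX2 (-0.22 to 0.0556) and ALDH1A2 (-0.57 to 0.0372). Some ranges kept their sign but had an end that differed by over 1.5 times from the value with all libraries. Among fold changes given above, these were HOXA6 (0.27 to 1.07), HOXD3 (0.0520 to 0.21), HOXD11 (0.52 to 1.05), PBX3 (-0.61 to -0.27), CDX2 (0.43 to 0.93), CBX5 (-0.43 to -0.21) and RAD21 (0.0712 to 0.31). Some other genes stayed within 1.5 times of that value at both ends but still varied, such as HOXA13 (0.28 to 0.54).

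Deviations of same-numbered libraries correlated at 0.04 across tested rows, so the numbers were not taken to pair the samples. With the replicate block, HOX calls stayed at 1, calls over all rows became 1207, Polycomb calls became 2 (without CBX7) and boundary factors 1 (STAG1), and among long noncoding RNAs the HOXA-AS2 call ended (adjusted p = 0.0544) and HOTAIRM1 passed (adjusted p = 0.0421). The numbers are treated as names only. Depth is unknown and 2 libraries a group limit every test.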
